A study of Mus musculus with 6 samples.

Results

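Slit proteins are secreted ligands and Robo proteins are their receptors at the cell surface. The genes were taken by name from the deposited RNA-seq table. Of the 7 symbols Slit1, Slit2, Slit3, Robo1, Robo2, Srgap1 and Srgap2, 5 have a row among the 13283 genes of the table, and Slit2 and Robo2 were not analysed here. The 6 libraries came from BAT cells, 1 immortalized line of mouse brown preadipocytes. All had been differentiated and, at day 6, given 10 µM forskolin, an activator of adenylyl cyclase, for 6 h. All cells stably expressed Cas9. The 3 libraries labelled as wild-type controls are the Scr cells, transduced with scrambled sgRNA, and the other 3 are MICT1 KO cells, in which CRISPR-Cas9 targeted the gene of the microprotein MICT1. The paper describes independent KO pools made with different sgRNAs, and the labels do not say which pool a library came from. The targeted gene itself was not analysed here, so the KO labels were not checked against it.

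Slits were first known as repellents of growing axons and migrating cells. Their leucine-rich repeats bind the immunoglobulin domains of Robo receptors, and heparan sulfate chains strengthen that binding. Robo receptors have no enzyme activity of their own. They recruit adaptors, kinases and the srGAPs, which switch off small GTPases and so reshape the actin skeleton. In adipose tissue Slit2 and Slit3 are known as secreted factors whose cleaved fragments act on thermogenesis, on blood vessels and on sympathetic nerve fibres.

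A microRNA links several members. Slit3 (chromosome 11, from 35121224 to 35708507, plus strand, GRCm38) and Slit2 (chromosome 5, from 47983138 to 48307733, plus strand) each carry a gene of the microRNA miR-218 in an intron, and Robo1 is a known target of this microRNA. In Slit3 it is Mir218-2, in intron 14 of a transcript of 36 exons (chromosome 11, from 35616816 to 35616925). The mature sequence from RefSeq (GRCm38.p6) is the same from both loci and is printed with its seed, bases 2 to 8, in capitals. Below it stand the stretches of the 3′ UTRs of Robo1 (chr16:73045335-73045361, plus strand) and Srgap2 (chr1:131286515-131286541, minus strand) that hold the complement of the seed, AAGCACA, in capitals. They are shown because a host gene of the microRNA and genes with a seed match are both members.
mmu-miR-218-5p: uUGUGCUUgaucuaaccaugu
Robo1 3′ UTR: tttttggttttaaAAGCACAatcacta
Srgap2 3′ UTR: tgggaaaaatccaAAGCACAacttcaa
In the longest annotated 3′ UTR of each gene (GENCODE vM21) these letters were found 1 time in Robo1, 1 time in Srgap2 and 0 times in Slit1, Slit3 and Srgap1. The same letters were found 2 times each in Slit2 and Robo2, and 1 time each in Robo3, Srgap3 and Arhgap39. They occur in 13.8% of the 20921 genes with a 3′ UTR and in 18.1% of those with a 3′ UTR within 20% of the length of that of Robo1. The 3′ UTR of Srgap2 is longer (4106 bases, against 1733 in Robo1), and the share at its length was not counted. A match is a description of the letters, and neither miR-218 nor its effect was measured here.

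Promoters were read as the 250 bases before the RefSeq start, and 6 of the 7 symbols have an entry, all but Slit1. The cAMP response element TGACGTCA, which binds the PKA target CREB, was found in 0 of these promoters (1.55% of all 32851 promoters, both strands). Its core TGACG was found 2 times in that of Srgap2 and in no other of the 6 symbols (17.8% of all promoters hold it). The Srgap2 promoter (chr1:131527362-131527611, minus strand, GRCm38.p6) is printed for that reason, because forskolin was given to all cells. Capitals mark the core TGACG, the CCAAT box and the GC box GGGCGG, each on either strand.
Srgap2 promoter: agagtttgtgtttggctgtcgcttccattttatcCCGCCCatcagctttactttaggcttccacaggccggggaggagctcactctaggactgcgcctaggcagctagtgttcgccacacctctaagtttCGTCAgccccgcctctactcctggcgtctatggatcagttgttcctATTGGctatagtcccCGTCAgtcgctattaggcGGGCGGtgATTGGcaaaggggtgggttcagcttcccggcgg
The 2 matches of TGACG lay at positions -120 to -116 and -59 to -55, counted back from the start. CCAAT was found 2 times (33.8% of all promoters hold it) and GGGCGG 2 times (32.7%). The promoter of Slit3 held 6 matches of GGGCGG, and with 35 CpG dinucleotides it had more than 97.0% of all promoters. None of the motifs was found in that of Robo1 (chr16:72662899-72663148, plus strand), which says only that their letters are not in this window. The window lies inside the GENCODE vM21 span of the gene, which begins at 72308306, and the bases before that beginning were not read.

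The deposited values are a normalized signal. For all members they are whole numbers of reads, within a tolerance of 0.01, divided by a size factor of the library between 0.949 and 1.08. Summed over the genes of the table, the values correspond to an estimated 15445813 to 17925629 reads a library, which is not the sequencing depth. A value of 1 is therefore about 1 read. For the comparison, limma-trend was run on log2(value + 1) over 12507 genes that reached 10 in 3 or more libraries, and all 5 members were among them. Robo1 reached 10 in the 3 Scr libraries and in 1 KO library, so the Scr libraries alone carried it past this filter. The members had been chosen with this comparison known, so their differences are given as a description, with a standard error and no test.

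Slit1, a ligand known mostly from the nervous system, differed most between the groups (chromosome 19, from 41600257 to 41743665, minus strand). Its values were 28.7, 14.8 and 22.4 in the 3 Scr libraries, which is 29, 16 and 22 reads. In the MICT1 KO libraries they were 709, 888 and 820, from 744, 843 and 791 reads. Every KO library was far above every Scr library, and the spread was small against that distance (22.0 ± 6.94 against 806 ± 90.3, SD, n = 3). The mean was 36.7-fold higher in MICT1 KO cells, and the log2 fold change, MICT1 KO minus Scr on the log2(value + 1) scale, was 5.18 (standard error 0.21). Only 1 gene of the 12507 tested had a larger rise, and the median log2 fold change of all genes was -0.0053.

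Slit3, the Slit ligand known from brown fat progenitors, was the most abundant member in both groups. The Scr libraries had values of 854, 934 and 847, and the MICT1 KO libraries 1655, 1839 and 1670. The groups did not overlap, and their means were 878 ± 48.8 and 1721 ± 102 (SD, n = 3), a 1.96-fold difference. The log2 fold change was 0.97 (standard error 0.071). By size of rise Slit3 stood at rank 1101 of the 12507 genes, so many genes rose more.

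**Figure D1:**
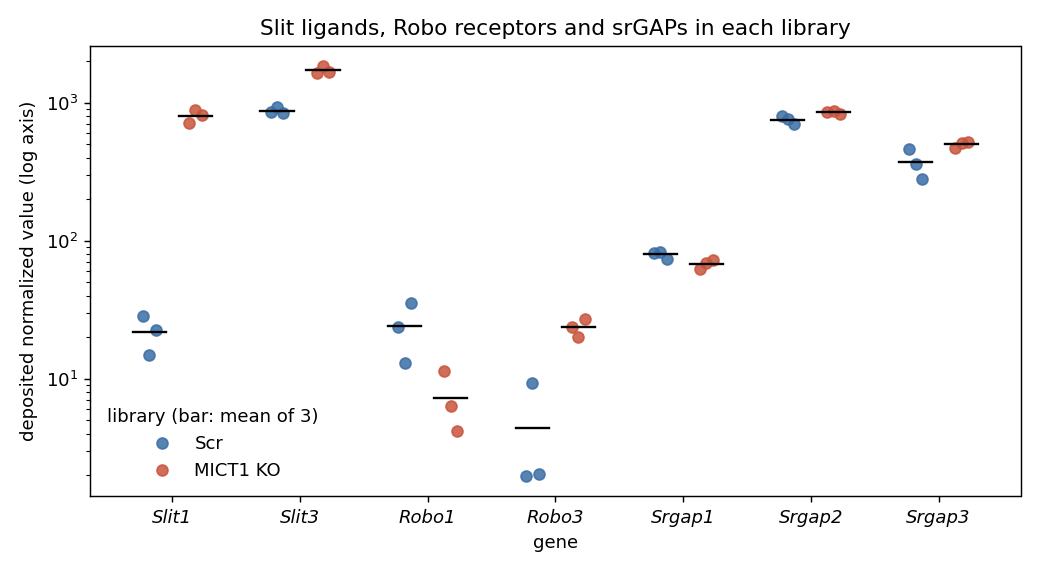
Deposited normalized value (log axis) of each gene in each library, blue for Scr and red for MICT1 KO, with a bar at the mean of 3 libraries. Slit1 moved from values of 14.8 to 28.7 in Scr to 709 to 888 in MICT1 KO libraries, Slit3 was 1.96-fold higher, Robo1 lay at few reads in all libraries, and for Srgap1 and for Srgap2 the Scr and KO points lay close to each other.

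Per length, the mixture of Slit transcripts differed between the groups. On the RPKM scale, which divides by the summed exon length (GENCODE vM21) and the library total, the level of Slit1 was 0.227 ± 0.0751 in Scr and 8.34 ± 0.977 in MICT1 KO libraries (SD, n = 3). That of Slit3 was 8.84 ± 0.387 and 17.4 ± 1.08. In the Scr libraries Slit1 made up 3.33%, 1.60% and 2.64% of the summed RPKM of Slit1 and Slit3. The KO libraries had 30.5%, 33.1% and 33.5%. The summed level went from between 8.75 and 9.42 RPKM to between 23.9 and 27.8 RPKM. Slit2 is not part of these sums. In Scr cells the level of Slit1 was above that of 8.55% of the 12910 genes with a length, and in KO cells above that of 58.0% of them.

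**Figure D2:**
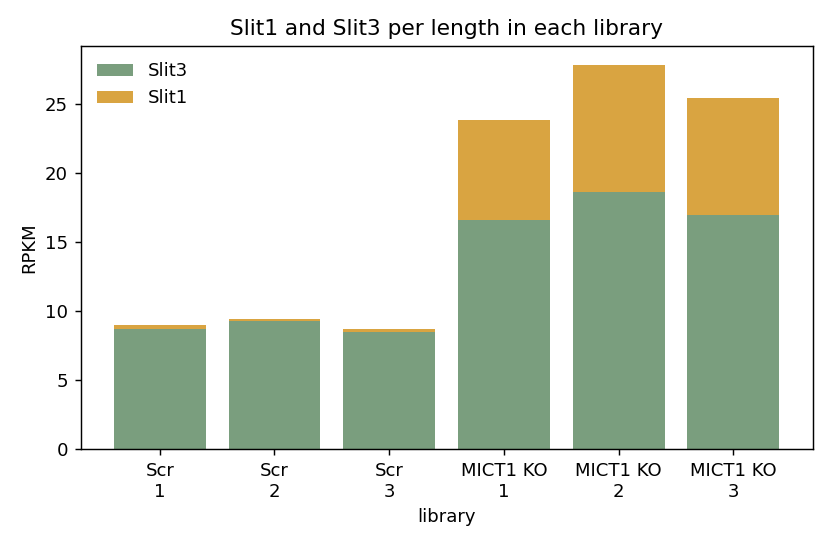
RPKM of Slit3 (green) and Slit1 (yellow) stacked for each of the 6 libraries. The Scr bars are nearly all Slit3 and reach 8.75 to 9.42, and in the KO bars, which reach 23.9 to 27.8, Slit1 takes 30.5% to 33.5%.

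The receptor Robo1 was at the edge of detection (chromosome 16, from 72308306 to 73046095, plus strand). Its values were 23.7, 12.98 and 35.6 in Scr libraries, from 24, 14 and 35 reads. In MICT1 KO libraries they were 11.4, 6.32 and 4.15, from 12, 6 and 4 reads. The groups lay apart, though the lowest Scr and the highest KO library were 2 reads from each other. The means were 24.1 ± 11.3 and 7.30 ± 3.74 (SD, n = 3), and the log2 fold change was -1.59 (standard error 0.54). It was -1.26 without Scr replicate 3 and -1.95 without Scr replicate 2, the ends of its range when 1 library was left out. The receptor had lower values in the group where both measured ligands were higher, and its highest level in any library was 0.132 RPKM.

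Srgap1 and Srgap2 encode GTPase-activating proteins that bind the cytoplasmic tail of Robo and act on small GTPases. Srgap2 (chromosome 1, from 131285251 to 131527352, minus strand) measured 802, 764 and 700.1 in the Scr libraries. In MICT1 KO it measured 854, 872 and 831. The log2 fold change was 0.18 (standard error 0.079). Srgap1 (chromosome 10, from 121780991 to 122047315, minus strand) measured 81.1, 83.4 and 74.3 in the Scr libraries. In MICT1 KO it measured 62.0, 69.5 and 72.6, and the log2 fold change was -0.23 (standard error 0.22). In Srgap1 the lowest Scr library (74.3) was close to the highest KO library (72.6), and in Srgap2 the highest Scr library (802) was close to the lowest KO library (831). Srgap2 was the more abundant of the pair, with an RPKM between 6.66 and 10.0 times that of Srgap1 in every library.

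In all, 3 of the 5 members had an adjusted p under 0.05 in the fit over all genes, where 56.9% of the genes tested did. Robo1 is 1 of these 3, and the Scr libraries alone carried it past the filter, so its call is no support for a difference. In 5 of 5 the ranges of the groups lay apart, which 62.0% of all genes showed (30.9% higher and 31.2% lower in MICT1 KO). The members' median log2 fold change was 0.18, against -0.0053 for all genes. These counts describe members that were chosen on the same comparison. With 1 library left out 2 to 3 members were called, Slit1 and Slit3 in each of these fits. Robo1 was not called without Scr replicate 1, Scr replicate 3 or MICT1 KO replicate 3. Srgap2 was called only without Scr replicate 1.

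**Figure D3:**
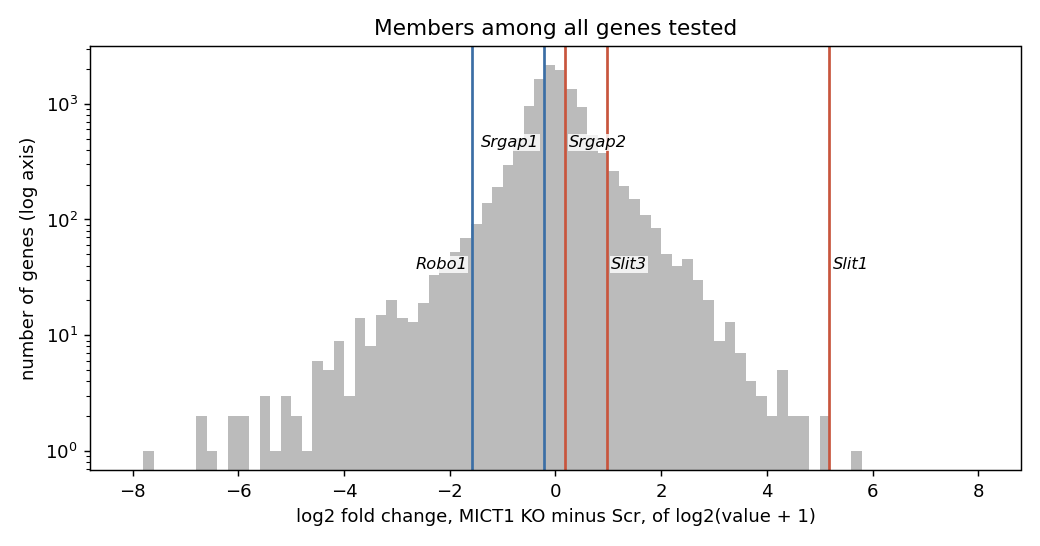
Number of genes (log axis) by log2 fold change, MICT1 KO minus Scr, for the 12507 genes tested, with a line at each member. Slit1 lies at 5.18 near the right end, Slit3 at 0.97 and Robo1 at -1.59 on the flanks, and Srgap1 (-0.23) and Srgap2 (0.18) in the centre.

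The order of the levels on the RPKM scale was Slit3, Srgap2, Srgap1, Slit1 and Robo1 in Scr cells, with means of 8.84, 3.68, 0.533, 0.227 and 0.0894. In MICT1 KO cells it was Slit3, Slit1, Srgap2, Srgap1 and Robo1, with means of 17.4, 8.34, 4.16, 0.457 and 0.0270. Neighbours in these orders did not overlap over the 3 libraries of a group. With the length of the longest coding transcript in place of all exons the orders were the same, but in Scr cells Slit1 (0.157 to 0.314) and Robo1 (0.103 to 0.287) then overlapped.

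The coefficient of variation of the values in Scr cells was 31.6% for Slit1 and 47.0% for Robo1, and between 5.56% and 6.82% for Slit3, Srgap1 and Srgap2. In KO cells, where Slit1 had at least 744 reads, it was 11.2% for Slit1, 51.3% for Robo1, 5.92% for Slit3, 8.02% for Srgap1 and 2.41% for Srgap2.

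The 3 genes whose log2(value + 1) followed Slit3 most closely over the 6 libraries were Cirbp (Pearson r = 0.9997), Gba2 (0.9992) and Trp53bp2 (0.9990). For Robo1 they were Ndufv2 (0.989), Ankrd49 (0.9884) and Mrps34 (0.9876). The points are 6 libraries in 2 groups, and 1623 genes had an r above 0.95 with Slit3 and 70 with Robo1.

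The next genes are other parts of the pathway, taken from 4 lists, and their p-values are limma-trend's with Benjamini-Hochberg adjustment over all genes tested. Of the other Robo and srGAP genes, Robo3, a receptor of commissural axons, measured 1.98, 9.27 and 2.04 in Scr libraries. After MICT1 KO it measured 23.8, 20.02 and 26.95. That is a log2 fold change of 2.43, given as a description with no p. It passed the filter on low values only through the KO libraries, with 19 to 26 reads, so it had to differ to be tested, and it could not be fitted when any of these was left out. The reads of Robo1 and Robo3 together numbered 26, 24 and 37 in the Scr libraries. In the KO libraries there were 37, 25 and 30, so the groups overlapped in this sum. It adds raw reads of genes of unlike exon length (16511 bases in Robo1 and 6848 in Robo3). Robo1 passed the filter through the Scr libraries and Robo3 through the KO libraries. The sum is therefore no measure of the level of Slit receptors. Srgap3, the third srGAP, rose 1.36-fold from 370 ± 91.8 to 502 ± 26.5 (SD, n = 3, log2 fold change 0.47, adjusted p = 0.00549). The highest Scr library (466) was close to the lowest KO library (472). Without Scr replicate 1 the log2 fold change of Srgap3 was 0.65. Without Scr replicate 3 it was 0.29 (adjusted p = 0.0492). Arhgap39, another GTPase-activating protein that binds Robo, did not pass (0.12, adjusted p = 0.605). The endothelial receptor Robo4 was not analysed here.

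Of the ligand partners and related guidance genes, Netrin genes and the chemokine gene Cxcl12 among them, 10 of 16 were tested. Of these, 7 were higher and 0 lower, and the median log2 fold change was 0.65. That is 70.0% called, against 56.9% of all genes (28.5% higher and 28.3% lower). At an unadjusted p under 0.05, and with limma-voom, the number lower was also 0. Bmp1, the metalloprotease known to cleave Slit3, rose from 2214 ± 291 to 2999 ± 159 (SD, n = 3, log2 fold change 0.44, adjusted p = 3.76e-05). Plxna1, the plexin known as the receptor of the C-terminal Slit3 fragment, rose by little, from 2561 ± 96.7 to 2911 ± 214 (log2 fold change 0.18, adjusted p = 0.0167), and did not pass without Scr replicate 2 (0.16, adjusted p = 0.0827) or MICT1 KO replicate 2 (0.13, adjusted p = 0.102).

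The largest rise of this list was that of Flrt2, a leucine-rich repeat membrane protein of axon guidance. It measured 13.8, 31.5 and 24.4 in the Scr libraries, and 195, 205 and 209 after MICT1 KO (log2 fold change 3.15, adjusted p = 2.78e-09). Flrt3, a coreceptor of Robo1, was not called (0.097, adjusted p = 0.657). Cxcl12, a chemokine whose attraction of cells is known to be damped by Slit, rose from 1079 ± 228 to 3244 ± 326 (SD, n = 3, log2 fold change 1.60, adjusted p = 4.58e-11). The Netrin receptor gene Unc5c measured 2.97, 4.63 and 4.07 without and 21.0, 14.8 and 29.0 with the knockout (log2 fold change 2.17). Like Robo3 it passed the filter only through the KO libraries, so no p is given, and it is 1 of the 7 genes counted as higher. With 1 library left out, 5 to 7 genes were.

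Of the heparan sulfate genes, 19 of 22 were tested, 8 were higher and 4 lower (63.2% called, against 56.9% of all genes), and the median log2 fold change was 0.017. The cell-surface carriers of the chains moved in both directions. Gpc6 (log2 fold change 1.01, adjusted p = 3.64e-09) and Sdc2 (0.83, adjusted p = 5.16e-09) rose. Sdc1, the most abundant carrier with values of 27442 to 28958 in Scr libraries, fell to between 19132 and 19668 (-0.53, adjusted p = 2.01e-08). Among the enzymes that act on the chains, Extl2 (0.70, adjusted p = 4.47e-07), Ext2 (0.68, adjusted p = 1.55e-08) and Ext1 (0.63, adjusted p = 1.57e-08) rose. Extl3 (-0.55, adjusted p = 3.71e-07) and Ndst1 (-0.52, adjusted p = 1.27e-07) fell. Hs6st2, a sulfotransferase, fell from values of 67.3, 40.8 and 51.9 to 18.1, 22.1 and 13.5 (-1.52, adjusted p = 0.000843).

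Of the proteins that act below Robo, 22 of 23 were tested, and 10 were higher and 6 lower (72.7% called, against 56.9% of all genes), with a median log2 fold change of 0.12. The rises included the kinases Pak1 (0.99, adjusted p = 4.44e-08) and Pak3 (0.62, adjusted p = 2.96e-06) and the actin-binding profilin Pfn2 (0.75, adjusted p = 0.000106). Pak1 went from 422 ± 51.9 to 837 ± 84.96 (SD, n = 3). The falls were led by Nck2, the adaptor that links Robo to Pak kinases, from 1287 ± 64.6 to 678 ± 54.4 (SD, n = 3, log2 fold change -0.92, adjusted p = 2.80e-09). Sos2 (-0.48, adjusted p = 0.000432), an exchange factor, and the kinase Abl2 (-0.26, adjusted p = 0.00742) followed. Without Scr replicate 1, Abl2 did not pass (-0.21, adjusted p = 0.0554). Usp33, a deubiquitinase that binds Robo1, was not called (0.099, adjusted p = 0.249).

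**Figure D4:**
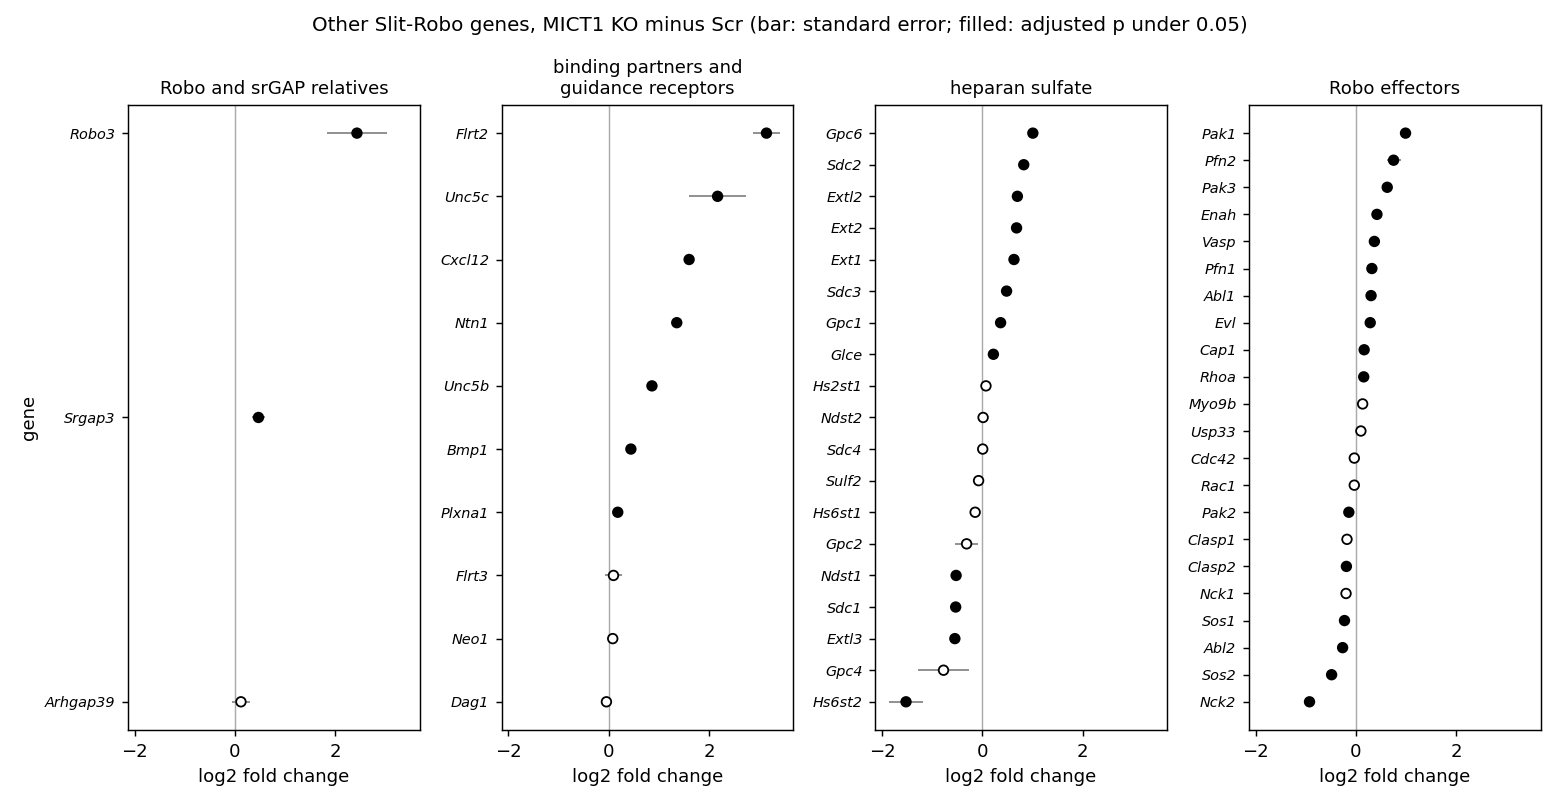
Log2 fold change, MICT1 KO minus Scr, with its standard error, of each tested gene of the 4 lists, filled where the adjusted p was under 0.05. Robo3 and Unc5c are filled by this rule, but they passed the filter only through the KO libraries, so their fill is no support. The list of binding partners and guidance receptors also holds Netrin genes and Cxcl12. Its genes lie right of zero, up to Flrt2 at 3.15, but for Dag1 at -0.043. Flrt3 (0.097) and Neo1 (0.082) lie close to zero and are not filled. Heparan sulfate genes and Robo effectors lie on both sides, from Hs6st2 at -1.52 and Nck2 at -0.92 to Gpc6 at 1.01 and Pak1 at 0.99.

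Marker genes of cell types also differed, and in bulk RNA fewer cells of a type and less RNA per cell cannot be told apart. The summed level of 7 mature adipocyte markers, Adipoq and Plin1 among them, was 6895 to 8263 CPM in Scr and 841 to 1219 CPM in MICT1 KO libraries. Of the 5 brown adipocyte markers, Ucp1 and Ppargc1a were in the table, and Cidea, Prdm16 and Dio2 were not analysed here. The summed level of Ucp1 and Ppargc1a was 1.78 to 1.99 CPM in Scr and 0.464 to 1.04 CPM in KO libraries. Only Ucp1 was lower, at 1.29 to 1.86 CPM in Scr and 0.0647 to 0.574 CPM in KO libraries. Ppargc1a overlapped, at 0.124 to 0.553 CPM in Scr and 0.0638 to 0.971 CPM in KO libraries. For 5 of 6 progenitor markers the sums were 193 to 215 CPM and 166 to 193 CPM, but Dlk1 fell (log2 fold change -3.47, adjusted p = 1.52e-12) and Ly6a rose (1.39, adjusted p = 2.78e-10). The neuronal tubulin Tubb3 was at 0.798 to 2.62 CPM in Scr and 8.12 to 9.95 CPM in KO libraries. Only Cdh5 of 6 endothelial markers was in the table, at 0.369 to 0.725 CPM and 1.60 to 2.03 CPM. Of 6 macrophage markers 3 were in the table, with sums of 15.3 to 21.9 CPM and 30.1 to 38.2 CPM. Of these Cd14 rose (1.24, adjusted p = 2.44e-06), while Cd68 (-0.23, adjusted p = 0.733) and Csf1r (0.29, adjusted p = 0.253) were not called. The sums of 4 of 5 mural markers overlapped, with 100.4 to 136 CPM and 126 to 143 CPM. Of them Pdgfrb rose (0.48, adjusted p = 4.46e-05), and Acta2 (-1.33, adjusted p = 4.53e-05) and Cspg4 (-0.92, adjusted p = 1.19e-05) fell. The other markers, such as Snap25, Sox10, Pecam1, Kdr and Adgre1, were not analysed here. The sums of the adipocyte markers, Cdh5 and Tubb3 did not overlap between the groups. The brown adipocyte sum lay apart through Ucp1 alone and the macrophage sum through Cd14 alone. As single genes, 62.0% of all those tested had ranges apart. The sums of the progenitor markers nearly met. The part of these marker differences in the Slit and Robo values was not tested.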

How the data were processed

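RNA-seq of 3 Scr and 3 MICT1 KO libraries, grouped by the sample titles, was used. The authors deposited 1 table with a normalized signal per gene symbol, in which every value is above 0. The methods describe stranded total RNA libraries aligned with Partek software to NCBI38/mm10, and the submitters' processing notes list Partek, STAR and DESeq2 without their roles. The counter and the annotation are not given in the sources used here. The design foresaw a count test for whole counts. Among values under 20, a share of 88.7% to 90.2% per library was a whole multiple of the value of 1 read (tolerance 0.01), which was too few to recover reads, so limma-trend (limma 3.58.1, R 4.3.3) on log2(value + 1) was used. Genes had to reach 10 in 3 or more libraries, which left 12507. Benjamini-Hochberg adjustment covered all of them, with a threshold of 0.05. The functions were tested on simulated data. The log2 fold change understates the change of low genes.

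RPKM used the exon length of GENCODE vM21. The methods call replicates biological, but the labels do not say that the libraries came from separate cultures, so p-values measure the spread between these libraries, which may be technical. The labels and the methods describe the library preparation differently. The labels name no batch. The members, gene lists and alternatives were chosen with earlier results of these data known. Besides the members, Robo3, Robo4, Srgap3, Bmp1, Plxna1, Usp33, the 3 largest rises and falls called in each list, and the 3 genes most like the highest Slit and Robo gene were named. Marker genes could be named with their level. Arhgap39, Dag1, Ext1, Ext2, Ndst1, Flrt3, Neo1, Ntn1, Unc5b and the genes around the Slit loci were named after their values were seen. Protein sequences were not used here. The summed level of the neuron and glia markers is not reported here.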

Additional observations from a re-analysis of the deposited data

How the results depend on the processing

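The alternatives were CPM or the trimmed mean of M values in place of the deposited scaling, pseudocounts of 0.5 and 5, no filter on low values, limma-voom, the replicate number as a block and each library left out in turn. The length of the longest coding transcript for the RPKM was added after seeing the data. Slit1, Slit3, Robo1, Srgap1 and Srgap2 kept their direction under all 13 alternatives of the fit. Over the fits without 1 library, the log2 fold change lay between 4.93 and 5.38 for Slit1, 0.92 and 1.02 for Slit3, -1.95 and -1.26 for Robo1, -0.27 and -0.16 for Srgap1 and 0.12 and 0.22 for Srgap2. A pseudocount of 5 gave -1.21 for Robo1 and 4.94 for Slit1, their largest moves among the settings that used all libraries. The number of genes called was between 3069 and 3343 lower and between 3200 and 3313 higher with a library left out, against 3544 and 3569. The number of Robo and srGAP relatives called higher was 1 to 2 with a library left out, because Robo3 falls under the filter without any of the KO libraries. With the replicate number as a block, 3 members were called, as without it, and the log2 fold change of Slit1 was 5.18. The deviations of libraries with the same number correlated at -0.024, -0.015 and 0.064 across genes, so the numbers do not pair the libraries. Robo1 and Robo3 are limited by depth, at 2 to 35 reads a library.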

Other observations

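The genes around the Slit loci, which were looked at after the values of the Slits were seen, moved in their own ways. None of the genes in the table within 200 kb of Slit1 or Slit3 overlaps it. Of 9 such genes around Slit1, the nearest on either side were Arhgap19 (limma-trend, log2 fold change 0.27, adjusted p = 0.0370) and Lcor (-0.20, adjusted p = 0.0480). The largest rise was that of Frat2, a regulator of Wnt signaling, from values of 290, 275 and 228 in Scr to 593, 670 and 628 in MICT1 KO libraries (1.26, adjusted p = 4.56e-09), far below the 5.18 of Slit1. Next to Slit3 on the same strand, Pank3, a pantothenate kinase of coenzyme A synthesis, fell from values of 9465, 8789 and 11493 to 2483, 2611 and 2768 (-1.91, adjusted p = 7.78e-15), while Slit3 was 1.96-fold higher.

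Other Netrin genes of the partner list were also higher. Ntn1, the ligand Netrin-1, rose from 671 ± 60.7 to 1719 ± 68.6 (SD, n = 3, limma-trend log2 fold change 1.36, adjusted p = 3.44e-12), and its receptor gene Unc5b from 3972 ± 149 to 7235 ± 426 (0.86, adjusted p = 3.66e-11). Neo1, another Netrin receptor, did not pass (0.082, adjusted p = 0.264). These genes were named after their values were seen.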
